A study of Homo sapiens with 6 samples.

Results

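The kinesins are motor proteins that use ATP to move along microtubules or to shorten them, and they were compared between control and STAU1 knockdown cells. The set was every protein-coding gene in the count table whose symbol is KIF or KIFC followed by a number, which gave 40 of 30493 listed genes. By their textbook roles, 12 were placed with mitosis and cytokinesis, 17 with transport along microtubules, and 11 with cilia, centrioles or other functions. KIF2A, which also has roles at spindle poles, was placed in the last group. The groups were made with earlier results of these data known. A549 is a human lung adenocarcinoma cell line. The 3 control libraries are labelled as carrying a control plasmid and have titles beginning NC, and the 3 knockdown libraries are labelled STAU1 knockdown and have titles beginning si_STAU1. All 6 come from the same cell line, no treatment, time or dose is given, and the labels do not say whether replicates were separate cultures. The p-values therefore measure no more than library-to-library spread, and that may be technical. STAU1 encodes a double-stranded RNA-binding protein that acts in mRNA localization, translation and decay, and the study asked how the A549 transcriptome differs after its depletion.

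Mitotic kinesins separate the spindle poles, align chromosomes, set microtubule length and build the midzone and midbody through which daughter cells divide. In proliferating cells their transcripts peak late in the cell cycle. Many of their promoters carry a CHR (cell cycle genes homology region), a short element near the transcription start that is known to bind the MuvB complexes, often with CCAAT boxes that bind NF-Y. Transport kinesins carry organelles, vesicles, protein complexes and mRNAs through the cytoplasm, and are not known as a group for cell cycle regulation.

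The libraries held 30354219 to 35431441 counts. STAU1 itself stood at 120.5, 125 and 117 CPM (the read count relative to library size, after edgeR's TMM scaling) in the controls and at 16.0, 15.7 and 14.6 CPM in the knockdown libraries, a log2 fold change of -2.97 (SE 0.04). Epithelial markers were present in every library: the summed CPM of 5 (among them KRT8 and KRT18) was 8757 to 8766 in controls and 6537 to 6744 in knockdown libraries, where 2 fell and 2 rose. This sum was far above those of other cell types, but KRT8 and KRT18 made up most of it, at means of 4371 and 4128 CPM in controls. KRT19, CDH1 and EPCAM stood at 138, 86.2 and 39.1 CPM in controls, and the neuronal genes SYT1 and SNAP25 at 27.8 and 20.2 CPM. CPM takes no account of gene length, so levels of different genes compare only roughly. Summed marker levels were 10.9 to 11.6 CPM in controls and 15.8 to 19.0 CPM in knockdown libraries for fibroblasts and endothelium, where 3 of 4 tested genes rose. They were 13.8 to 15.3 and 16.9 to 19.6 CPM for immune cells, where 1 of 3 rose. PTPRC and CD3E had no row in the table used here. For neuronal markers they were 73.7 to 76.4 and 121 to 123 CPM, where 4 of 5 tested genes rose and 1 fell. Over all 17089 genes tested, 22.2% were called higher and 22.0% lower at the threshold given below. The part of these marker shifts in the results was not tested.

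Of the 40 kinesin genes, 36 had enough counts to be tested. KIF1A, which carries synaptic vesicle precursors, had 4, 4 and 4 reads in controls and 3, 2 and 2 in knockdown libraries. KIF6 had 3 to 13 reads per library, KIF26B 0 to 6, and KIF19 a single read in 1 library. KIF2B and KIF4B were not analysed here.

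The promoter windows of the mitotic kinesins are shown first, because the CHR letters were shared by most of them and by few transport kinesins. RefSeq's promoter sequences (GRCh38.p14) span 250 bases before to 50 bases from each annotated start. They were searched on both strands for the CHR letters TTTGAA and TTCGAA and for the box CCAAT. On the gene's own strand a CHR on the opposite strand reads TTCAAA, while TTCGAA reads the same on both. Each line gives 30 bases on the gene's strand, 5′ to 3′, with the CHR in capitals, and positions count from the annotated start at 0.
KIF14, which acts at the midbody in cytokinesis, chr1:200620733-200620762, minus strand, CHR at 1: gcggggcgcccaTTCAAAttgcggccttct
KIF18B, which shortens astral microtubules, chr17:44947754-44947783, minus strand, CHR at 2: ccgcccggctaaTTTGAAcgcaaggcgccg
KIF22, which pushes chromosome arms from the poles, chr16:29790712-29790741, plus strand, CHR at -27: ggcaccggggaaTTCGAAtgggagaggcgg
KIF11, which slides spindle poles apart, chr10:92593090-92593119, plus strand, CHR at -28: ctctgtctctttTTCAAAttgaggcgccga
KIF18A, which dampens chromosome movement at the metaphase plate, chr11:28108149-28108178, minus strand, CHR at -10: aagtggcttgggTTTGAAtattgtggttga
KIFC1, a minus-end motor that focuses the poles, chr6:33391815-33391844, plus strand, CHR at 4: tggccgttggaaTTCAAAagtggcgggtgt
KIF20B, a motor of late cytokinesis, chr10:89701605-89701634, plus strand, adjoining CHRs from 24: ccgccattgTTTGAATTTGAAaacggtaac
KIF23, the motor of centralspindlin, chr15:69414282-69414311, plus strand, CHR at -55: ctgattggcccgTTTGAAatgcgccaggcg
KIF15, which can take over spindle assembly from KIF11, chr3:44761747-44761776, plus strand, CHR at -35: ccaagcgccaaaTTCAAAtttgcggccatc
KIF4A, a chromosome-bound motor of the midzone, chrX:70290058-70290087, plus strand, CHR at -34: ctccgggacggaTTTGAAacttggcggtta
For contrast, KIF5B, the conventional kinesin heavy chain, chr10:32056548-32056577, minus strand, CHR at -140: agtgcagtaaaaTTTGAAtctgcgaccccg

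Of the 12 tested mitotic kinesins, 10 (83.3%) had a CHR in the window, and all 10 had it within 60 bases of an annotated start. KIF22 has a second annotated start, from which the same CHR lies at -244. Among transport kinesins 11 of 16 tested genes had a window, and KIF5B was the only 1 of the 11 with a CHR. Among the other kinesins it was 1 of 7, in KIF24. Over all tested genes with a window, counted once per symbol, the share was 1793 of 11490 (15.6%), and 5.18% had it within 60 bases. CCAAT letters stood in 10 of 12 mitotic windows, 4 of 11 transport windows and 42.6% of all tested genes. Both motifs stood together in 9 of the 12 mitotic kinesins, against 6.57% of all tested genes. The CHR letters were not particular to mitotic kinesins among genes of division. Of the spindle and midbody partners described below, 14 of the 20 with a window had a CHR. In 13 of these 14 it lay within 60 bases of a start, and 12 had both motifs. Among the 8 proliferation markers described below, 4 had a CHR, 3 of them within 60 bases. KIF2C had neither motif in its window, KIF20A had CCAAT only and KIF15 the CHR only. These matches describe letters, not binding, and their part in the changes was not tested.

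**Figure D1:**
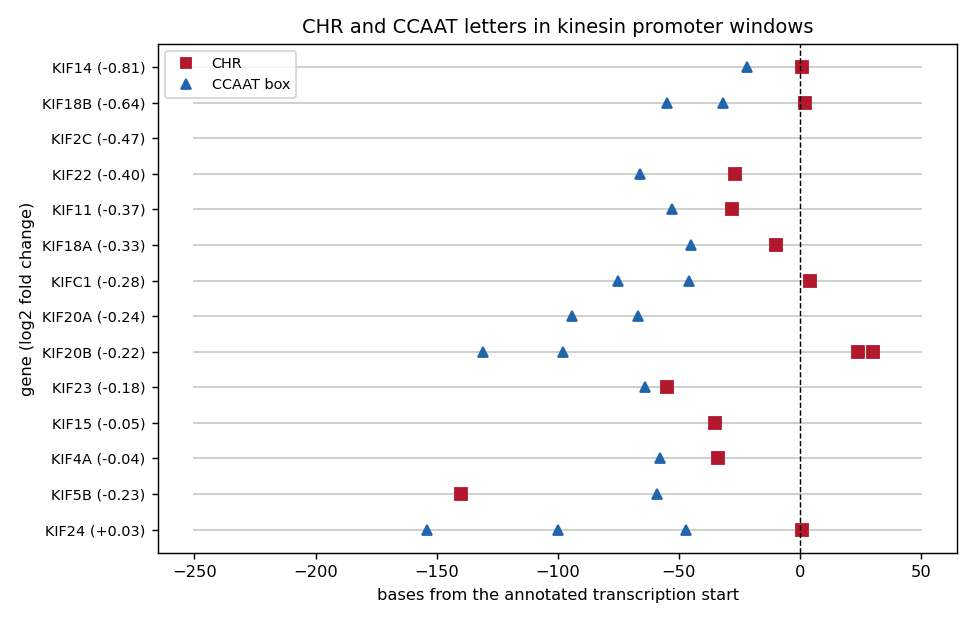
Positions of CHR (squares) and CCAAT (triangles) letters in the promoter windows of the 12 mitotic kinesins, KIF5B and KIF24, in bases from the annotated transcription start, with each gene's log2 fold change beside its name. With the KIF22 window that has the CHR at -27 drawn, CHR squares of mitotic genes lie within 60 bases of the start, including those of KIF15 and KIF4A, which were not called.

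Among the mitotic kinesins, 10 of 12 fell in the knockdown libraries and 0 rose, with a median log2 fold change of -0.31 (-0.23 with total-count scaling, -0.17 on log2(FPKM + 1) and -0.19 on log2(FPKM + 0.1)). Over all 17089 genes tested, 22.0% were called lower and 22.2% higher, 44.2% in all, at a Benjamini-Hochberg adjusted p under 0.05 from the quasi-likelihood test of edgeR. The median over all genes was -0.0004. Rises made up 50.3% of these calls, 69.5% with total-count scaling and 77.3% with limma-trend on log2(FPKM + 1), where 8 mitotic kinesins were lower and 0 higher. The same 10 genes had groups that did not overlap, against 25.5% of all genes in that direction. In bulk RNA, fewer cells in mitosis and less of each transcript per cell cannot be told apart. Log2 fold changes below are knockdown over control, with their standard errors, from the same fit.

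**Figure D2:**
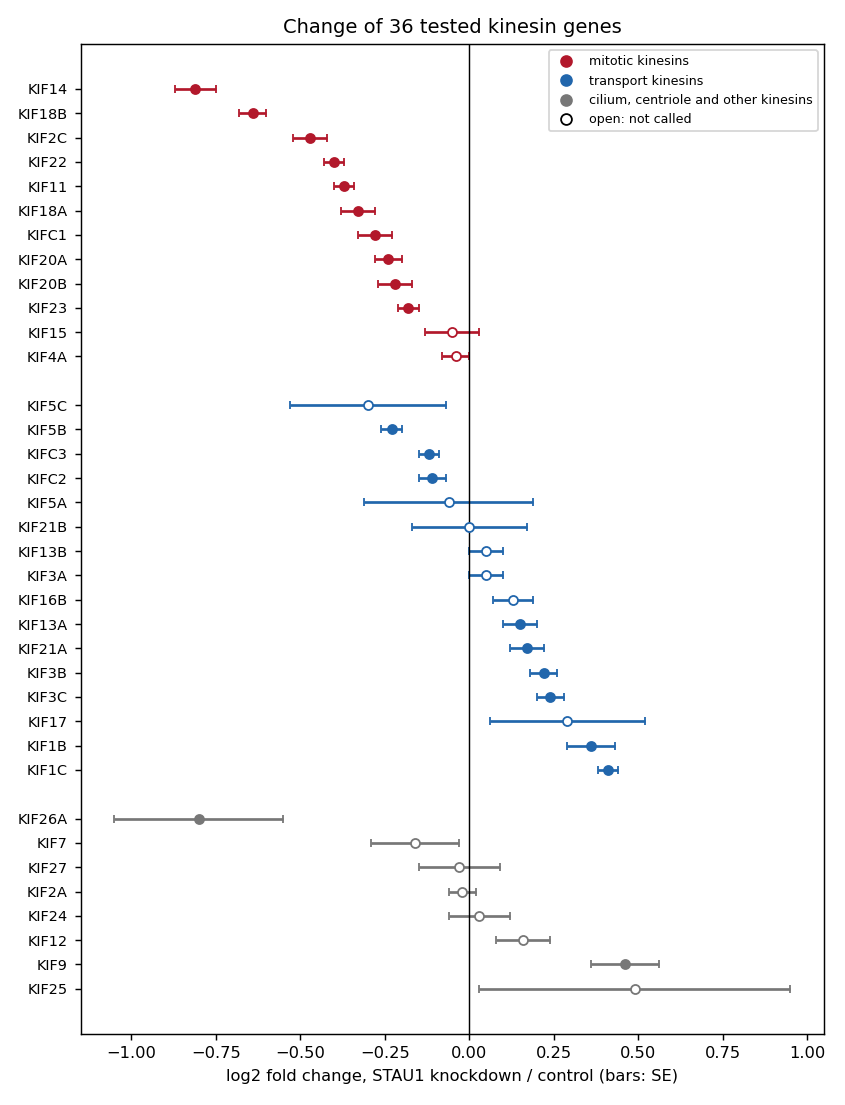
Log2 fold change (knockdown over control) of the 36 tested kinesin genes with SE bars, grouped by role and ordered by size. Filled points passed an adjusted p of 0.05, and open points did not. The 10 filled mitotic genes lie between -0.81 and -0.18, and filled transport genes lie on both sides of 0.

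The cytokinesis motors were unequal. KIF14 (ENSG00000118193.12, chr1:200551497-200620734, minus strand, GRCh38 coordinates of GENCODE 29), which works with citron kinase at the midbody, stood at 23.9, 23.0 and 26.0 CPM in controls and at 13.8, 14.7 and 13.1 CPM in knockdown libraries. Every knockdown value was under every control value, and the mean went from 24.3 ± 1.53 to 13.9 ± 0.775 CPM (SD, n = 3 each). Its log2 fold change of -0.81 (SE 0.06, edgeR quasi-likelihood adjusted p = 6.8e-16) was the lowest of the 36 kinesins. KIF20A, which brings the chromosomal passenger complex to the midzone, read 50.7, 47.7 and 51.7 CPM against 42.9, 44.0 and 40.2 CPM, without overlap (log2 fold change -0.24, SE 0.04). KIF20B read 27.4, 26.9 and 26.4 against 24.0, 23.7 and 21.7 CPM (-0.22, SE 0.05). For KIF23, which with RACGAP1 forms the centralspindlin complex that bundles midzone microtubules, the values were 100.3, 91.6 and 95.7 against 81.8, 88.1 and 83.2 CPM (-0.18, SE 0.03). KIF20B and KIF23 thus fell less than KIF14, although all 3 act late in division. Their calls were lost on the authors' FPKM values with limma-trend on log2(FPKM + 1), at adjusted p of 0.098 for KIF20B and 0.248 for KIF23.

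Among motors that act on microtubule ends or on chromosomes, KIF18B, KIF18A, KIF2C and KIF22 fell, and KIF4A and KIF2A (both described below) were not called. KIF18B (ENSG00000186185.14, chr17:44924709-44947711, minus strand), which limits astral microtubule growth and so positions the spindle, read 41.7, 40.6 and 42.0 CPM in controls and 25.2, 27.5 and 26.8 CPM in knockdown libraries. The mean went from 41.4 ± 0.761 to 26.5 ± 1.19 CPM (SD, n = 3 each; log2 fold change -0.64, SE 0.04, edgeR quasi-likelihood adjusted p = 7.0e-17). Its paralog KIF18A, which acts at kinetochore fibres, read 24.7, 25.6 and 26.2 against 20.2, 21.4 and 19.2 CPM (-0.33, SE 0.05). Both paralogs fell, KIF18B by the larger amount. KIF2C, a depolymerizing kinesin that corrects wrong chromosome attachments, read 35.2, 33.1 and 34.8 CPM in controls and 23.8, 26.5 and 24.2 CPM after knockdown (-0.47, SE 0.05). Neither motif was found in the window of KIF2C. KIF22 stood at 75.7, 73.9 and 75.9 CPM in controls and at 55.5, 56.6 and 58.9 CPM in knockdown libraries (-0.40, SE 0.03). An antisense gene on the opposite strand overlaps 13.0% of the exonic bases of KIF22, and the sources used here do not say whether counting used strand.

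The poleward and pole-separating motors gave 2 lower genes and 1 that was not called. KIF11, the tetrameric motor that pushes centrosomes apart and the target of antimitotic Eg5 inhibitors, read 88.4, 90.9 and 89.9 CPM in controls and 70.4, 71.8 and 66.2 CPM in knockdown libraries, again without overlap (log2 fold change -0.37, SE 0.03). KIFC1 stood at 25.8, 25.6 and 25.6 against 20.9, 22.0 and 20.5 CPM (-0.28, SE 0.05). A pseudogene on the opposite strand, RPL12P1, overlaps 12.7% of the exonic bases of KIFC1. KIF15, which can build a bipolar spindle when KIF11 is inhibited, read 10.4, 8.92 and 10.1 against 9.75, 9.24 and 9.44 CPM. Its groups overlapped and it was not called (-0.05, SE 0.08, edgeR quasi-likelihood adjusted p = 0.639). KIF4A was not called either, at 40.9, 36.8 and 37.6 CPM in controls and 35.8, 39.4 and 36.9 CPM in knockdown libraries (-0.04, SE 0.04, adjusted p = 0.492). Reads of KIF4A can be shared with its near-identical copy KIF4B. The estimates of KIF15 and KIF4A were above 0 with total-count scaling (0.03 and 0.04) and on the FPKM scales, so these 2 genes have no stable direction.

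**Figure D3:**
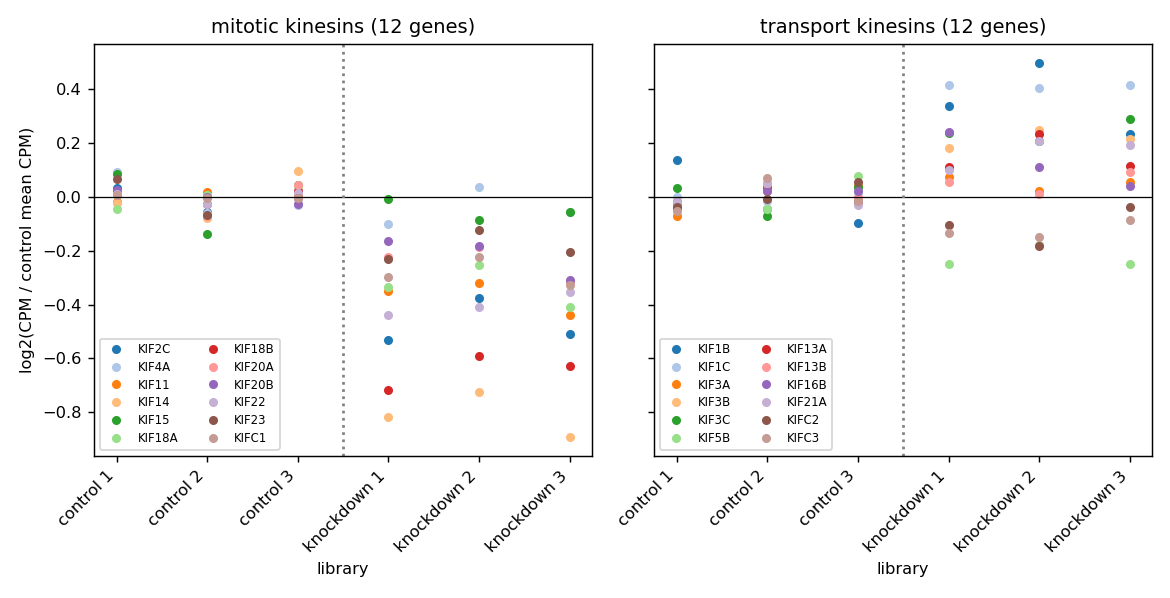
Log2 of each library's CPM over the control mean of that gene, for the 12 mitotic kinesins and the 12 transport kinesins whose mean log2 CPM was 3 or more (1 colour per gene, 1 column per library). Mitotic points of the knockdown libraries lie below 0 except for KIF4A in knockdown replicate 2, and transport points lie on both sides.

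The transport kinesins had 6 genes higher, 3 lower and 7 not called among 16 tested. With total-count scaling 9 were higher and 1 lower, against 5473 and 2407 of all 17089 genes. On log2(FPKM + 1) 8 were higher and 0 lower, against 5276 and 1552 of 17088 genes. On log2(FPKM + 0.1) the transport counts were the same, against 5262 and 1554. Their median log2 fold change was 0.09, against 0.17 with total-count scaling and 0.20 on log2(FPKM + 0.1). Set against 22.2% of all genes called higher and 22.0% lower, the shares were 37.5% and 18.8%. Groups did not overlap in 7 genes that were higher and 2 that were lower, against 25.8% and 25.5% of all genes.

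Among transport kinesins of the kinesin-3 family, KIF1C and KIF1B had the largest rises. KIF1C (ENSG00000129250.12, chr17:4997948-5028401, plus strand), which moves dense-core vesicles and integrin-bearing endosomes, stood at 78.6, 77.9 and 79.7 CPM in controls and at 105, 104 and 105 CPM in knockdown libraries. The mean rose from 78.7 ± 0.861 to 105 ± 0.604 CPM (SD, n = 3 each; log2 fold change 0.41, SE 0.03, edgeR quasi-likelihood adjusted p = 1.5e-16). KIF1B, a carrier of mitochondria and synaptic vesicle precursors, read 27.5, 24.2 and 23.4 against 31.6, 35.3 and 29.4 CPM (0.36, SE 0.07). Both groups were apart, but the KIF1B values were spread more widely than those of KIF1C. KIF13A, which serves recycling endosomes, read 29.7, 30.9 and 29.7 against 32.5, 35.4 and 32.6 CPM (0.15, SE 0.05). Its call was lost without knockdown replicate 2, at 0.11 and an edgeR quasi-likelihood adjusted p of 0.0661. KIF13B, known for carrying the polarity protein DLG1, was not called at 25.5, 27.2 and 26.3 against 27.3, 26.5 and 28.0 CPM, except with total-count scaling (edgeR quasi-likelihood adjusted p = 0.0265). KIF16B, a motor of early endosomes, read 20.4, 21.3 and 21.3 against 24.8, 22.7 and 21.6 CPM. Its groups did not overlap, but it missed the threshold (0.13, SE 0.06, adjusted p = 0.0503) and passed it without knockdown replicate 3 (0.0139), with total-count scaling and on the FPKM scales.

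The kinesin-2 motors drive transport along the cilium and in the cytoplasm as heterotrimers of KIF3A, KIF3B or KIF3C, and the adaptor KIFAP3. KIF3C read 61.9, 57.6 and 62.1 CPM in controls and 71.3, 69.9 and 73.9 CPM in knockdown libraries (log2 fold change 0.24, SE 0.04). KIF3B read 52.9, 56.4 and 54.1 against 61.8, 64.7 and 63.3 CPM (0.22, SE 0.04). KIF3A, the common partner of both, read 19.6, 20.9 and 21.2 against 21.7, 20.9 and 21.4 CPM, and was not called (0.05, SE 0.05). With total-count scaling KIF3A was called, at 0.13 and an edgeR quasi-likelihood adjusted p of 0.041. KIFAP3 rose from 18.7 ± 0.666 to 21.3 ± 0.977 CPM (SD, n = 3 each; 0.19, SE 0.06). KIF21A, which restrains microtubule growth at the cell cortex, rose as well, from 27.2, 28.6 and 27.0 to 29.6, 31.9 and 31.5 CPM (0.17, SE 0.05).

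The 3 transport kinesins that fell include the motor with the highest level per length. KIF5B, the widely expressed kinesin-1 heavy chain, stood at 161, 159 and 173 CPM in controls and at 138, 145 and 138 CPM in knockdown libraries (log2 fold change -0.23, SE 0.03). This call was lost on the FPKM scale (limma-trend on log2(FPKM + 1), -0.11, adjusted p = 0.0573). KIFC3, a minus-end motor of apical transport and adherens junctions, read 96.3, 105 and 98.9 against 91.0, 90.1 and 94.2 CPM (-0.12, SE 0.03). With total-count scaling its adjusted p was 0.215, and its call was lost. KIFC2 read 36.1, 36.9 and 38.5 against 34.5, 32.7 and 36.1 CPM, groups that met at 36.1 (-0.11, SE 0.04, edgeR quasi-likelihood adjusted p = 0.0459). On the FPKM scales the estimate of KIFC2 lay above 0, at 0.00071 and 0.00077. DESeq2 gave KIFC2 an adjusted p of 0.137, and 4 of the 6 fits without 1 library (control replicate 2 or 3, knockdown replicate 1 or 2) lost the call, with adjusted p of 0.0711, 0.206, 0.0968 and 0.239. The exons of KIFC2 overlap FOXH1 on the opposite strand over 17.8% of their bases. The neuronal heavy chains KIF5A and KIF5C, and KIF17 and KIF21B, stood under 3 CPM on average and were not called.

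Among the other kinesins, 1 of 8 tested rose (12.5%), 1 fell (12.5%) and 6 were not called, beside 22.2% and 22.0% of all genes. So few genes cannot show a difference from those shares. The count higher was 2 with total-count scaling, on both FPKM scales and without knockdown replicate 2. KIF9, a motor of motile cilia, rose from 5.93, 5.49 and 4.46 CPM to 7.74, 6.45 and 7.61 CPM (log2 fold change 0.46, SE 0.10). An antisense gene overlaps 14.9% of its exonic bases. KIF26A, a kinesin without motor activity that acts in signalling, had 39, 32 and 43 reads in controls and 23, 25 and 21 reads in knockdown libraries (-0.80, SE 0.25). Its few reads gave it a far wider error than KIF14, and with limma-trend on log2(FPKM + 1) its call was lost (adjusted p = 0.0522). KIF2A, a depolymerizing relative of KIF2C with roles at spindle poles, in neurites and at cilia, read 63.0, 59.9 and 58.0 against 59.4, 60.9 and 58.3 CPM, with overlap (-0.02, SE 0.04). KIF12 read 9.48, 10.03 and 8.73 against 10.5, 9.77 and 11.2 CPM (0.16, SE 0.08, edgeR quasi-likelihood adjusted p = 0.0955). KIF12 was called without knockdown replicate 2 (0.046) and with total-count scaling (0.0108). KIF7, the ciliary regulator of Hedgehog signalling, KIF24, which restrains cilium formation, KIF27 and KIF25 were not called, at log2 fold changes of -0.16, 0.03, -0.03 and 0.49, the last with an SE of 0.46.

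Summed over genes, the mitotic kinesins took 545, 525 and 542 CPM in controls and 424, 445 and 420.2 CPM in knockdown libraries, a change of -20.0%. The transport kinesins took 642, 652 and 660.5 CPM in controls and 674, 685 and 681 CPM in knockdown libraries, a change of 4.36%. On the authors' FPKM scale the summed changes were -13.9% for mitotic and 10.6% for transport kinesins. Within each library the mitotic sum over the transport sum, which no scaling of libraries affects, was 0.849, 0.805 and 0.821 in controls and 0.629, 0.649 and 0.617 in knockdown libraries. The ratio was lower in all 3 knockdown libraries, and the exact two-sided permutation test gave p = 0.1, the smallest that 3 libraries against 3 allow. From FPKM values the ratio was 1.28, 1.22 and 1.23 in controls and 0.965, 1.0 and 0.946 in knockdown libraries.

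Ratios of related kinesins within a library were computed for 7 gene pairs, chosen after their values were seen. KIF18B over KIF18A was 1.69, 1.58 and 1.6 in controls and 1.25, 1.28 and 1.4 in knockdown libraries. KIF2C over KIF2A was 0.559, 0.552 and 0.601 in controls and 0.4, 0.435 and 0.415 after knockdown. Both ratios were lower in every knockdown library. KIF3C over KIF3A went the other way, from 3.16, 2.75 and 2.93 to 3.28, 3.34 and 3.44. KIF3B over KIF3A also did not overlap between groups, and each of these 4 gave p = 0.1 in the exact two-sided permutation test (0.175 after Benjamini-Hochberg adjustment over the 7). The ratios KIF20A over KIF20B, KIF1C over KIF1B and KIF13A over KIF13B overlapped between groups, with exact permutation p of 0.8, 0.7 and 0.2.

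Levels of different genes can be compared only per length, so the authors' FPKM values were used for that. In controls KIF5B led at 22.8 ± 1.16 FPKM (SD, n = 3), followed by KIF22 at 14.2, KIF11 at 13.8, KIF23 at 11.9 and KIF20A at 10.6 FPKM. Thus 4 of the 5 highest kinesins in control A549 cells were mitotic. KIF1C moved from rank 9 (7.49 FPKM) to rank 5 (10.7 FPKM), and KIF14 from rank 18 (2.72 FPKM) to rank 24 (1.68 FPKM). KIF22 and KIF11, at ranks 2 and 3 in controls, differed by about the spread between libraries.

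**Figure D4:**
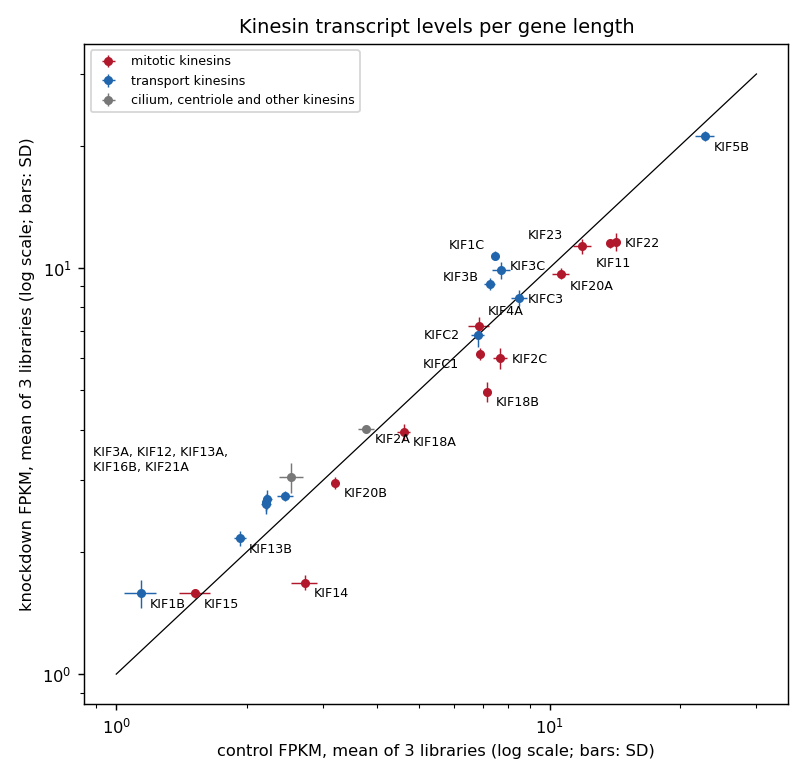
Mean FPKM of each kinesin with at least 1 FPKM in controls, controls on the horizontal and knockdown on the vertical axis (both log scales, bars SD, n = 3), with the line of equal values. KIF14, KIF18B and KIF2C lie under the line, KIF1C and KIF1B above it, and KIF5B has the highest level in both groups.

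Of 24 spindle and midbody partners, 21 fell, 1 rose and 2 were not called, and the median change on the log2 scale was -0.32. The share lower was 87.5%, against 22.0% of all genes. On both FPKM scales 15 were lower, against 1554 of 17088 genes with log2(FPKM + 0.1) and 1552 with log2(FPKM + 1). With total-count scaling 16 were lower, against 2407 of 17089 genes. CCNB1, the cyclin that starts mitosis with CDK1, fell from 193 ± 7.57 to 133 ± 1.6 CPM (SD, n = 3 each; -0.54, SE 0.03). PLK1, a kinase of mitotic entry and cytokinesis, fell from 106 ± 2.79 to 74.3 ± 2.19 CPM (-0.51, SE 0.03), and the spindle pole kinase AURKA from 110.2 ± 2.99 to 82.3 ± 1.28 CPM (-0.42, SE 0.03). CENPE, the kinetochore kinesin whose symbol lies outside the KIF series, stood at 17.1, 16.1 and 17.3 CPM in controls and at 14.3, 15.7 and 13.6 CPM in knockdown libraries (-0.21, SE 0.06). Its call was lost with total-count scaling (edgeR quasi-likelihood adjusted p = 0.0813) and on log2(FPKM + 1) (-0.06, limma-trend adjusted p = 0.35). NUMA1, which anchors dynein at the spindle poles, rose from 67.8 ± 0.24 to 80.5 ± 1.61 CPM (0.25, SE 0.03). INCENP and NUSAP1 were not called, NUSAP1 with under 1 CPM in every library.

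Proliferation markers fell in 8 of 8 cases (22.0% of all genes fell), with a median of -0.18, against -0.31 for the mitotic kinesins. The marker list itself holds mitotic genes such as BUB1 and CENPF, so it does not set proliferation apart from mitosis. The difference between the lists was not tested. RRM2, a subunit of ribonucleotide reductase, fell from 157 ± 3.45 to 130.2 ± 4.2 CPM (SD, n = 3 each; -0.27, SE 0.03). BUB1, a spindle checkpoint kinase, fell from 50.2 ± 1.56 to 40.4 ± 0.301 CPM (-0.31, SE 0.04), and MKI67 from 149 ± 3.64 to 127 ± 6.41 CPM (-0.23, SE 0.03). With limma-trend on log2(FPKM + 1) only 3 of the 8 were called lower, against 1552 of 17088 genes, and MKI67 had an adjusted p of 0.0729. Whether the mitotic kinesins fell with a smaller share of dividing cells was not tested.

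Of 23 genes for transcription factors, MuvB subunits and related regulators of cell cycle genes, 9 fell, 2 rose and 12 passed in neither direction. The shares were 39.1% lower and 8.7% higher, against 22.0% and 22.2% of all genes. Their median was -0.10. With total-count scaling 5 were lower and 4 higher, against 2407 and 5473 of all 17089 genes. NFYC, a subunit of the CCAAT-binding factor, fell from 42.6 ± 0.651 to 31.7 ± 1.03 CPM (SD, n = 3 each; -0.42, SE 0.04). E2F5, a repressor E2F, fell from 35.7 ± 0.438 to 27.9 ± 0.83 CPM (-0.36, SE 0.04). RB1, the retinoblastoma repressor, fell from 30.3 ± 1.49 to 22.9 ± 1.88 CPM (-0.41, SE 0.05). Whether these falls bear on the mitotic kinesins was not tested. Of the 596 tested gene identifiers with a CHR within 60 bases of the start, 30.4% were called lower and 26.2% higher, with a median of -0.0067. Among all 11500 tested genes with a window, here counted per gene identifier, of which some share a symbol, 24.3% were lower and 25.2% higher.

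The light chains and accessory subunits of transport kinesins gave 3 higher, 1 lower (16.7%) and 2 not called of 6, against 22.2% and 22.0% of all genes, so the share lower is near that of all genes. KLC4, a kinesin-1 light chain, rose from 12.7 ± 0.529 to 18.9 ± 0.429 CPM (SD, n = 3 each; 0.57, SE 0.06), and KLC1 from 69.9 ± 0.585 to 79.9 ± 1.46 CPM (0.19, SE 0.03). KLC2 fell from 36.2 ± 1.28 to 32.2 ± 0.304 CPM (-0.17, SE 0.04). This call was lost with total-count scaling (edgeR quasi-likelihood adjusted p = 0.0808) and on log2(FPKM + 1) (-0.05, limma-trend adjusted p = 0.353). The light chains of KIF5B thus did not all share its direction. KLC3, at 1.49 CPM in controls, and KIFBP, which binds kinesin motor domains, were not called.

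Cargo adaptors and activators gave 12 higher, 3 lower and 8 not called of 23, with a median of 0.11. The share higher was 52.2%, against 22.2% of all genes. On the FPKM scales 0 were lower, where few genes of any kind were: 1554 of 17088 with log2(FPKM + 0.1) and 1552 with log2(FPKM + 1). MAP7, which recruits kinesin-1 to microtubules, rose from 65.5 ± 2.01 to 100.1 ± 2.78 CPM (SD, n = 3 each; 0.61, SE 0.03). TRAK1, which links kinesin-1 to mitochondria, rose from 42.1 ± 2.05 to 57.5 ± 2.41 CPM (0.45, SE 0.04). KIDINS220, a scaffold at membranes that binds light chains, rose from 29.5 ± 0.715 to 39.0 ± 0.808 CPM (0.40, SE 0.04). Of 23 tested genes of dynein, the minus-end motor, and its partners, 9 rose, 5 fell and 9 passed in neither direction (median 0.04). The share lower, 21.7%, is near the 22.0% of all genes, and the share higher was 39.1%, against 22.2%. With total-count scaling 14 were called higher, against 5473 of all 17089 genes. The adaptor BICD2 rose from 17.9 ± 0.11 to 29.1 ± 0.888 CPM (0.70, SE 0.05) and PAFAH1B1, which keeps dynein attached under load, from 138 ± 3.5 to 158 ± 1.93 CPM (0.20, SE 0.03). The dynein heavy chain gene DYNC1H1 fell from 214 ± 7.45 to 179 ± 2.91 CPM (-0.26, SE 0.02).

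**Figure D5:**
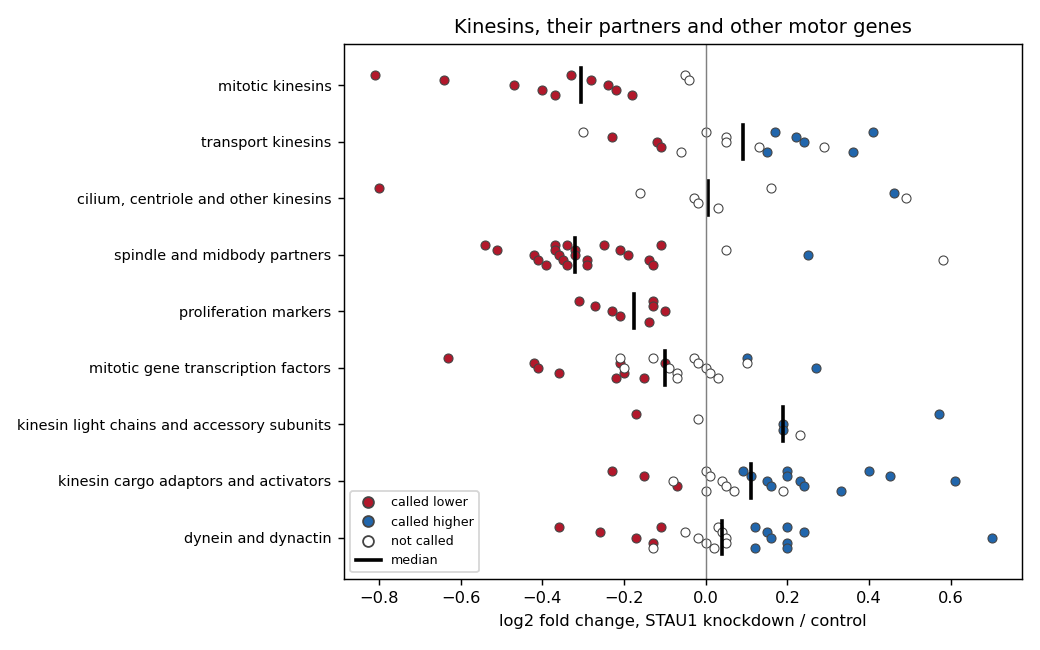
Log2 fold change (knockdown over control) of every tested member of the 3 kinesin groups and 6 partner lists, 1 point per gene, coloured by call, with the list median as a bar. Medians lie at -0.31 for mitotic kinesins, -0.32 for spindle and midbody partners and 0.09 for transport kinesins.

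Mitotic and transport kinesins also differed in transcript structure. The longest annotated 3′ UTR in GENCODE 29 had a median of 584 nt in the 12 mitotic kinesins (75 to 1891 nt), 2489 nt in the 16 tested transport kinesins (570 to 5016 nt) and 534 nt in the 8 others. The mitotic gene with the longest, KIF14, fell most, and the one with the shortest, KIF22, also fell (log2 fold change -0.40). Across genes, Spearman's rho between this length and the log2 fold change was 0.208 over 36 kinesins, -0.413 within the 12 mitotic and 0.174 within the 16 transport kinesins, and 0.144 over 13429 tested genes. These are descriptions across genes, which share the same libraries and are not independent replicates, and the 3′ UTR that A549 cells use may be shorter.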

How the data were processed

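RNA was captured on poly(A) beads and sequenced as directional 150 nt paired-end libraries, per the labels' protocols. The authors deposited whole-number read counts per gene and FPKM values (scaled by gene length and depth). HISAT2, DESeq2 and GRCh38 are named, without roles or versions, in the submitters' processing notes; the sources used here do not give the counting tool, annotation release or strand setting. Counts were filtered with filterByExpr (minimum count 10, 17089 genes kept), scaled with TMM and tested with edgeR 4.0.16's quasi-likelihood test (limma 3.58.1, R 4.3.3) on the 3 control and 3 knockdown libraries, with Benjamini-Hochberg adjustment over all genes and a threshold of 0.05. SEs were computed by dividing each log2 fold change's size by the square root of F. Replicates differed by more than sampling noise (chi-square per degree of freedom 1.78 to 2.88). On simulated counts for these 17089 genes the test recovered 60%, 80%, 96% and 98% of genes changed by log2 0.25, 0.5, 1 and 2, with 6 false calls. The simulation gave every gene the same dispersion (coefficient of variation 2.61%) and changed only 50 genes at each size. In the real data the spread differs between genes and 44.2% of genes were called, so these rates may not hold there. Alternatives were RLE and total-count scaling, no filter, at least 1 CPM in 3 libraries, DESeq2 1.42.0, limma-voom, limma-trend on FPKM values as log2(FPKM + 1) or log2(FPKM + 0.1), a replicate block and each library left out.

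The members, lists and tests were chosen with earlier results of these data known. Values in every library are given for tested mitotic kinesins, for called transport and other kinesins, and for those not called whose mean log2 CPM was 3 or more. In each partner list the 3 called members with the smallest adjusted p are named, and CENPE, KIFAP3, KIFBP and the light chains always; NUMA1, INCENP, NUSAP1 and the genes in the paragraph on markers were named after their values were seen. Transport and other kinesins under that level are summarised. Gene coordinates and 3′ UTRs come from GENCODE 29 and promoters from RefSeq (GRCh38.p14). Motor domain sequences were not analysed here.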

Additional observations from a re-analysis of the deposited data

How the results depend on the processing

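The 10 lower and 0 higher mitotic kinesins held with RLE and total-count scaling, both filters, DESeq2, limma-voom, the replicate block and each library left out; with limma-trend on either FPKM scale there were 8 lower. The cause of the changes below was not tested. Total-count scaling and log2(FPKM + 0.1) or log2(FPKM + 1) shifted the median of all genes by 0.0764, 0.0961 and 0.0516, and raised the share of higher calls from 50.3% to 69.5%, 77.2% and 77.3%. The lower counts under log2(FPKM + 0.1), log2(FPKM + 1) and total-count scaling were 0, 0 and 1 for transport kinesins, 4, 4 and 5 for transcription factors, 0, 0 and 0 for light chains and 0, 0 and 1 for adaptors. On both FPKM scales they were 3 for proliferation markers and 2 for dynein, and on log2(FPKM + 1) 0 for other kinesins. The higher counts under the same 3 settings were 2 for other kinesins and 4 for transcription factors, and 14 for dynein with total-count scaling.

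Group medians in that order were -0.19, -0.17 and -0.23 for mitotic kinesins, and 0.11, 0.05 and 0.08 for other kinesins, which stood at 0.03 with no filter. For transport kinesins the median was 0.20 with log2(FPKM + 0.1), 0.17 with total-count scaling and 0.06 with no filter. Leaving out a library in turn gave 6779 to 7106 called genes, 2 to 3 lower and 5 to 7 higher transport kinesins, and 1 to 2 higher other kinesins.

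Signs changed for genes that were not called and for KIFC2. Under log2(FPKM + 0.1), log2(FPKM + 1) and total-count scaling, KIF4A became 0.07, 0.06 and 0.04, KIF15 0.06, 0.04 and 0.03, KIF5A 0.0067, 0.00017 and 0.02, and KIF21B 0.06, 0.02 and 0.07. KIF2A became 0.09, 0.07 and 0.06, KIF27 0.05, 0.02 and 0.04, and KIFBP 0.08, 0.07 and 0.05. KIFC2 became 0.00071 and 0.00077 on the FPKM scales. KIF21B became 0.00089 with at least 1 CPM in 3 libraries. Leaving out each library in turn gave KIF4A -0.08 to 0.0062, KIF5A -0.27 to 0.12, KIF21B -0.14 to 0.15, KIF2A -0.05 to 0.01 and KIFBP -0.06 to 0.03.

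Whether replicate numbers pair the libraries was not settled. Same-number deviations correlated at 0.0403, 0.0185 and 0.0958 over 10107 genes, and deviations of different numbers at -0.0911 to 0.0565. The highest value was that of control replicate 3 with knockdown replicate 3, while control replicate 2 correlated best with knockdown replicate 1 (0.0565). The replicate block called 7665 genes against 7560 and gave the same kinesin counts, 10 lower mitotic, 6 higher and 3 lower transport, and 1 higher and 1 lower other. DESeq2 called 6023 genes. At this depth and with 3 libraries a group, differences of the sizes seen among the kinesins can be missed.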
